A study of Mus musculus with 6 samples.

Results

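The insulin-like growth factor (IGF) family was followed here through 10 genes: the ligands Igf1 and Igf2, the receptors Igf1r and Igf2r, and the binding proteins Igfbp2, Igfbp3, Igfbp4, Igfbp5, Igfbp6 and Igfbp7. Their members were all 28 probe sets, of 45037 other than controls, that the platform annotation names for exactly 1 of these genes. The family was chosen by the signal of Igfbp5, which was lower in Ngn2-GFP positive cells. The contrast between the populations thus entered the choice, and the members' differences in it are given as descriptions without p-values.

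RNA came from ventral mesencephalon of mouse embryos at day 12.5, sorted by flow cytometry and measured on 1 array per sample. There were 2 groups of 3 arrays, biological replicates per the series' design text; how many embryos each array holds is not given in the sources used here. The positive group held GFP-positive cells of Ngn2-GFP mice on a CD1/129 background, labelled as midbrain dopaminergic progenitors. The negative group held GFP-negative cells of Lmx1a-GFP mice on a C57BL/6 background, labelled as a non-dopaminergic progenitor population. Neurog2 (Ngn2) is a proneural transcription factor and Lmx1a a transcription factor of dopaminergic progenitors. Reporter line, strain and sort gate coincide with the group on every array and cannot be told apart. In sorted pools, fewer cells of a type and less RNA per cell cannot be told apart either.

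IGF1 and IGF2 are secreted growth factors that signal through the receptor tyrosine kinase IGF1R, whereas IGF2R takes up IGF2 and delivers it for degradation. The binding proteins hold the ligands outside the cell and can both restrain and prolong their action, and proteases release the ligand by cutting them. In the developing brain this system is known for promoting growth, proliferation and survival of neural progenitors and neurons.

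Igfbp5 and Igfbp2 are direct protein-coding neighbours on chromosome 1 of GRCm38.p6. The 250 bases before their annotated starts in RefSeq are shown because Igfbp5 separated the arrays of the populations, whereas those of Igfbp2 overlapped. Capitals mark the E-box letters CANNTG, which basic helix-loop-helix factors such as NEUROG2 can bind. Igfbp5 lies on the minus strand at chr1:72874866-72875115, and the first of the windows listed for Igfbp2 on the plus strand at chr1:72824230-72824479.
Igfbp5: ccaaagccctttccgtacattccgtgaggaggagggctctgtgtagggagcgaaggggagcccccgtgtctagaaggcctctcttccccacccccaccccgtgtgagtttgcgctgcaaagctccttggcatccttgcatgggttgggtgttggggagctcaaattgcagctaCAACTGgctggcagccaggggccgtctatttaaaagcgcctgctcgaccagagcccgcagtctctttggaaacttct
Igfbp2: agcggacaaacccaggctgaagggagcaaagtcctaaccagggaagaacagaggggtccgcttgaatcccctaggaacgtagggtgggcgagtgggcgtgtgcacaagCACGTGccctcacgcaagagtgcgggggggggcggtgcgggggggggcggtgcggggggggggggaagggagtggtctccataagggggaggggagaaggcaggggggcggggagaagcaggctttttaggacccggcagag
Each window held 1 match to CANNTG, searched on both strands, and none to TATAAA, the core letters of a TATA box. The 10 genes had 14 such windows in the table, of which 9 held CANNTG and 2 (those of Igfbp4 and Igfbp6) held TATAAA, with no overlap between the motifs. Of all 32851 windows of this length, 66.2% held CANNTG and 12.4% TATAAA. A match describes letters and is not evidence of binding.

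Signals are MAS5 intensities, which weigh perfect-match against mismatch probes. They are compared between arrays and never between probe sets, and the number of arrays limits their precision. Testing required a signal above the array's 40th percentile, which lay at 10.2 to 15.8, on at least 3 arrays. This was met by 22 of the 28 members, from 9 of the 10 genes. Igfbp6 was not among them. Group averages are geometric means, and differences are log2 values of positive minus negative cells. Their standard error (SE) comes from limma, with n = 3 arrays in each group.

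**Figure D1:**
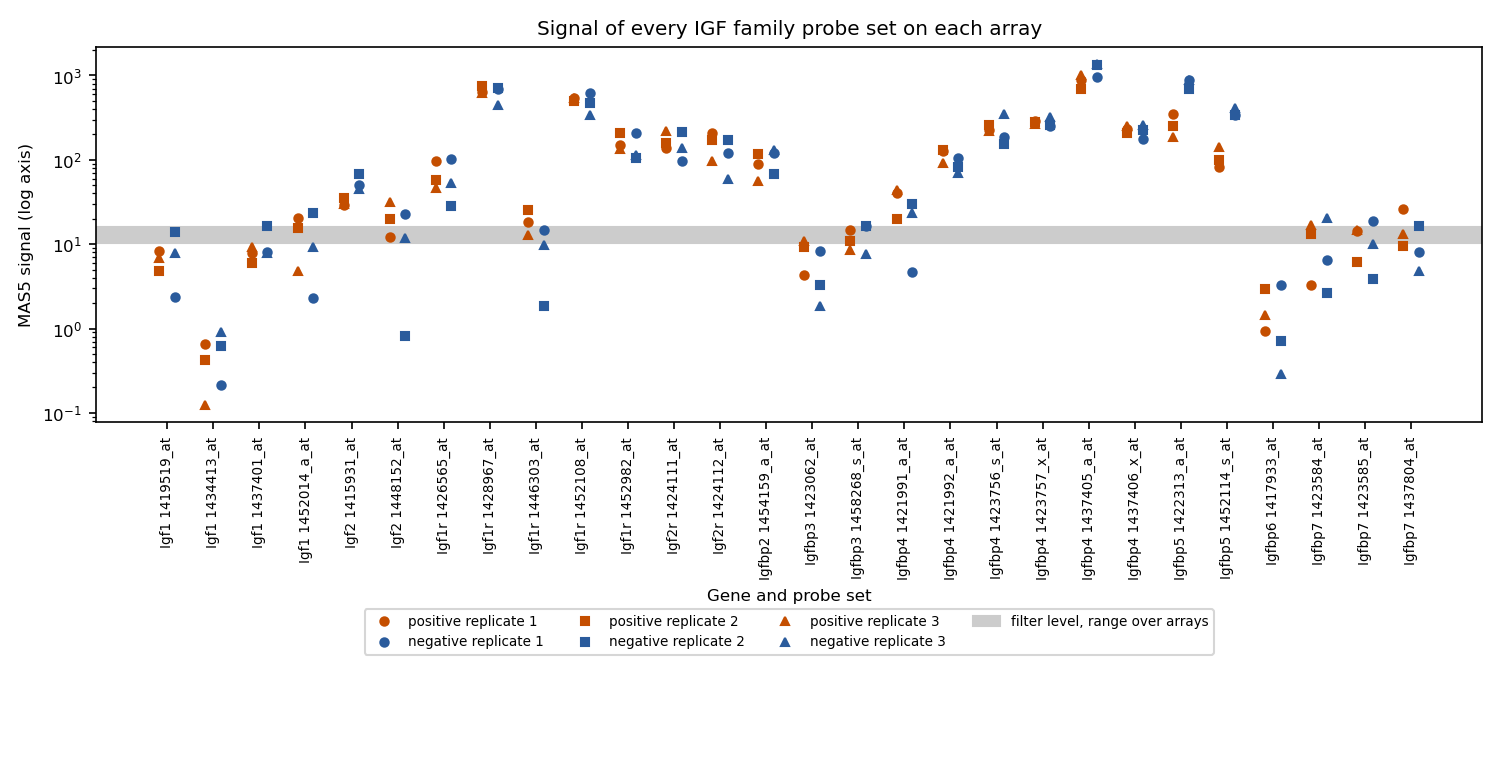
MAS5 signal (log axis) of all 28 probe sets on each of the 6 arrays, with 1 symbol per replicate, positive arrays in orange and negative arrays in blue. The grey band is the filter level, 10.2 to 15.8 over the arrays. The Igfbp5 probe sets show clear gaps between the colours, while most others intermingle.

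Igfbp5 carried the difference that the family was chosen for. IGFBP5 is a secreted binding protein that also attaches to extracellular matrix. On probe set 1422313_a_at its signal was 352, 249 and 186 on positive replicates 1 to 3, against 889, 694 and 883 on negative replicates 1 to 3. Every positive array thus lay well below the lowest negative array, and the groups did not overlap. The average was 254 (SD 0.46 log2 units) in positive and 817 (SD 0.20) in negative cells, a 3.22-fold deficit (-1.69, SE 0.25).

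The other Igfbp5 probe set, 1452114_s_at, gave 82.8, 99.9 and 141 on the positive arrays and 337, 342 and 414 on the negative ones. The suffixes _a_at and _s_at mark probe sets that can read more than 1 transcript. Again every positive array lay below every negative array. The averages of 105 (SD 0.39) and 363 (SD 0.17) differed 3.44-fold (-1.78, SE 0.25). Within the positive group the probe sets ordered the arrays in opposite ways: replicate 1 was the highest on 1422313_a_at and the lowest on 1452114_s_at. Over the 6 arrays they correlated at 0.85, a value that mainly reflects the gap between the groups. Among all 27738 tested probe sets these differences lay in the lowest 0.919% and 0.779%. The family was chosen for this difference, so the ranks only describe it and nothing is read from them.

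**Figure D2:**
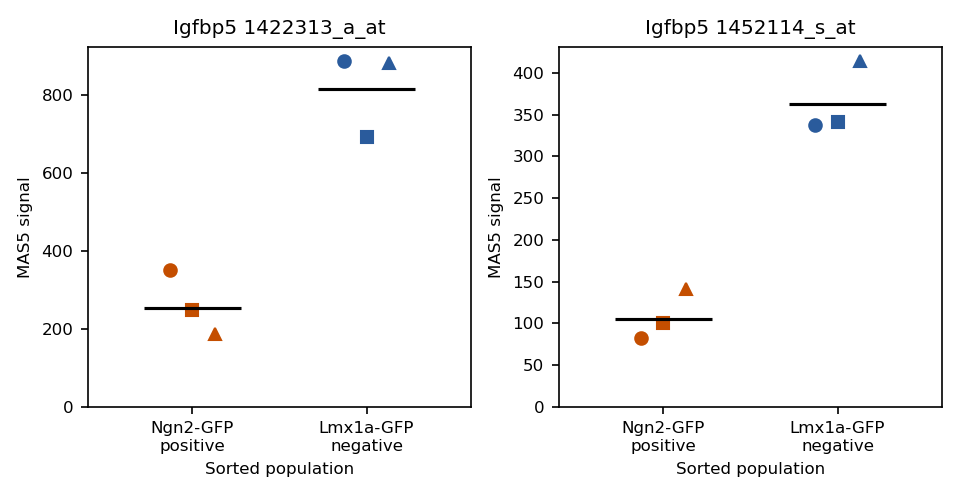
MAS5 signal of the Igfbp5 probe sets on the 3 positive and 3 negative arrays (linear axes from 0), with 1 symbol per replicate and a line at the geometric mean. Positive arrays average 254 and 105, negative arrays 817 and 363, and the groups do not overlap on either probe set.

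Positive replicates 1 and 2 stood apart from the other arrays in control probe sets. Their hybridization spike-ins had geometric means of 2293 and 2352, where the remaining 4 arrays ranged from 4254 to 6560. For Gapdh the 3' probe set exceeded the 5' one 4.41-fold and 4.73-fold on this pair, and 5.94-fold to 9.21-fold elsewhere. Positive replicate 3 alone against the 3 negative arrays gave Igfbp5 differences of -2.13 on 1422313_a_at and -1.36 on 1452114_s_at. These rest on 1 positive array, which has no replicate. Without positive replicate 3 the differences were -1.46 and -1.996. All negative arrays had higher spike-ins, so in that comparison spike-in level and group cannot be told apart.

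Of the 22 tested members, 2 were past the adjusted threshold of limma, both lower in positive cells, where 0.35% of all tested probe sets were called lower and 0.537% were called either way. Those were the Igfbp5 probe sets that led to the choice of the family, and nothing is read from the count. The groups did not overlap on 3 of the 22 (both Igfbp5 probe sets and 1 of Igf2), against 13.9% of all tested probe sets, or 5.98% for separation in the lower direction, which all 3 had. The median difference was 0.22 over the 22 and 0.06 over all tested probe sets, with 16 at positive and 6 at negative values.

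**Figure D3:**
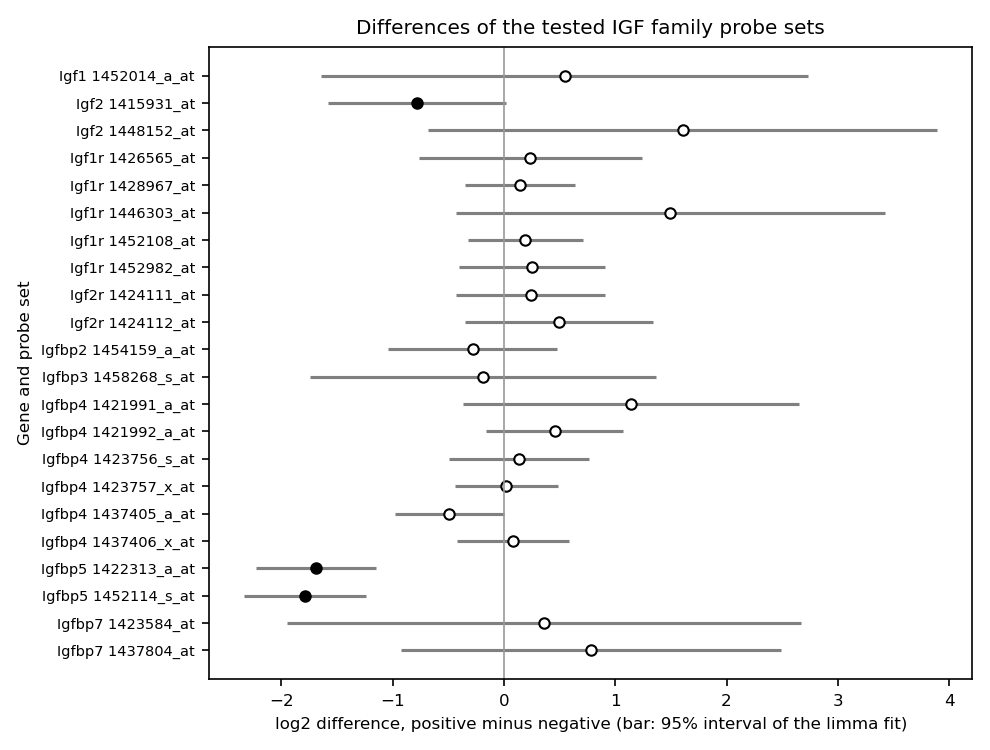
log2 difference, positive minus negative, of the 22 tested probe sets with the 95% interval of the limma fit. Filled points mark groups that do not overlap: Igfbp5 (-1.69 and -1.78) and Igf2 1415931_at (-0.78). The remaining points have overlapping groups.

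Among the ligands, Igf2 was read by 2 probe sets that differed in direction. Igf2 encodes a fetal growth factor expressed from the paternal allele in most tissues. On 1415931_at the signal was 28.9, 35.0 and 30.1 on positive arrays and 50.1, 68.3 and 45.0 on negative arrays. All positive arrays lay below all negative ones, and the averages of 31.2 and 53.6 differed by -0.78 (SE 0.37). On 1448152_at the values were 12.0, 19.7 and 31.6 against 22.6, 0.819 and 11.7. These groups overlapped, with negative replicate 2 far below the others, and the difference of 1.61 had an SE of 1.06.

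Igf1, the ligand that acts through the same receptor, was near the filter level or under it on all 4 of its probe sets. The 1 tested, 1452014_a_at, read 20.5, 15.8 and 4.75 on positive and 2.27, 23.6 and 9.18 on negative arrays. The groups overlapped, and the difference was 0.55 (SE 1.01). On the other 3 probe sets no positive array exceeded the filter level. Of the negative arrays only replicate 2 did so, at 14.1 on 1419519_at and 16.6 on 1437401_at, and 1434413_at stayed under 1 on all 6 arrays.

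The signalling receptor Igf1r was measured well above the filter level in both populations. On 1428967_at the signal was 644, 743 and 622 on positive and 687, 712 and 451 on negative arrays, a difference of 0.14 (SE 0.23, 95% interval -0.35 to 0.63). On 1452108_at it was 547, 500 and 541 against 622, 467 and 340, a difference of 0.19 (SE 0.24, 95% interval -0.32 to 0.71). Both intervals exclude a 2-fold difference in either direction, and the groups overlapped.

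The other Igf1r probe sets had wider errors. 1452982_at differed by 0.25 (SE 0.30) and 1426565_at by 0.24 (SE 0.46), with overlapping groups. 1446303_at read 18.2, 25.3 and 12.9 on positive arrays and 14.8, 1.86 and 9.67 on negative ones. No negative array exceeded the filter level there, so the positive average was at least 1.40-fold higher, although negative replicate 1 lay above positive replicate 3. All 5 Igf1r probe sets had positive differences, but 1446303_at passed the filter through positive arrays alone, which largely set its sign. Each of the other Igf1r probe sets changed sign under at least 1 of the 12 alternatives given at the end. No direction is read from the shared sign.

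Igf2r, the receptor that clears IGF2, exceeded the filter level on both of its probe sets in both populations. On 1424111_at the signals were 139, 156 and 220 against 97.5, 212 and 140, a difference of 0.24 (SE 0.31, 95% interval -0.43 to 0.91). On 1424112_at they were 205, 172 and 96.7 against 121, 170 and 59.0, a difference of 0.49 (SE 0.39, 95% interval -0.35 to 1.34). The groups overlapped on both, and neither interval excludes a modest change either way.

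Igfbp2, the neighbour of Igfbp5, had 1 probe set, 1454159_a_at. This binding protein is abundant in embryonic neuroepithelium. Its signal was 89.98, 117 and 55.7 on positive and 120, 68.0 and 130 on negative arrays. The groups overlapped, and the difference was -0.28 (SE 0.35, 95% interval -1.04 to 0.48). Positive replicate 3 had the lowest value, and against the negative arrays it alone gave -0.87, with no replicate.

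Igfbp4, which binds both ligands and is a substrate of the protease PAPPA, had 6 probe sets, all tested. The one with the highest signal, 1437405_a_at, read 883, 692 and 1015 on positive and 957, 1320 and 1367 on negative arrays. Positive replicate 3 lay above negative replicate 1, so the groups overlapped, and the difference was -0.49 (SE 0.23). The other 5 went the other way or stayed near 0. 1423757_x_at differed by 0.02 (SE 0.21), 1437406_x_at by 0.08 (SE 0.23) and 1423756_s_at by 0.13 (SE 0.29).

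Of the last Igfbp4 probe sets, 1421992_a_at gave 127, 132 and 92.3 against 104, 82.7 and 69.5, a difference of 0.46 (SE 0.29). 1421991_a_at gave 40.3, 19.9 and 44.3 against 4.66, 30.1 and 23.6, a difference of 1.14 (SE 0.70), with negative replicate 1 standing low. No Igfbp4 probe set separated the groups, and their signs were mixed.

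Igfbp3, Igfbp6 and Igfbp7 were dim. IGFBP3 is the main carrier of IGFs in blood, IGFBP6 prefers IGF2, and IGFBP7 is a low-affinity relative typical of blood vessels. Igfbp3 1458268_s_at read 14.8, 10.9 and 8.57 against 16.5, 16.3 and 7.60, a difference of -0.19 (SE 0.72), and 1423062_at exceeded the filter level on no array. Igfbp6 1417933_at ranged from 0.289 to 3.27 over the 6 arrays and exceeded the filter level on none. The 3 Igfbp7 probe sets ranged from 2.61 to 25.9. The tested ones differed by 0.36 (SE 1.07) on 1423584_at and 0.78 (SE 0.79) on 1437804_at, all with overlapping groups, so these data set little limit on a change of these genes.

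The patterns most like that of Igfbp5 1422313_a_at over the 6 arrays were sought among tested probe sets of other genes. By Pearson correlation of log2 signal they were Gata3 (0.997), Poglut1 (0.997), Maoa (0.995), Cisd2 (0.989) and Slc13a4 (0.988). These values describe 6 arrays in 2 groups and the same hybridizations, and so many candidates yield high values. Gata3, a transcription factor of midbrain GABAergic neurons, read 61.2, 31.0 and 24.9 on positive and 209, 150 and 203 on negative arrays, 5.13-fold lower in positive cells. Maoa, which encodes the monoamine-degrading enzyme monoamine oxidase A, was 1.92-fold lower, and the other 3 were 1.46-fold to 1.52-fold lower.

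Markers of other cell types also differed between the sorted populations. Summed erythroid marker signal was 317 to 629 in positive and 7513 to 14933 in negative cells, with all 5 tested of 9 on the array lower in positive cells by limma's adjusted p, against 0.506% of all genes. Microglia and macrophage markers summed to 77.4 to 108 against 425 to 887, with Aif1 at the floor of 1 on average in positive cells. Of 7 tested, 6 had negative differences (5739 of 12044 over all genes) and 4 were lower by limma's adjusted p, against the same 0.506%. Aif1, Csf1r, Tyrobp, Fcer1g, Hba-x and Hbb-bh1 passed the filter through negative arrays alone. That largely set their direction, and nothing is read from their part in these counts. Radial glia markers summed to 4456 to 6912 against 8100 to 9776. Of 9 tested, 7 had negative differences and 1 (Pax6) was lower by limma's adjusted p, against 0.506% of all genes. The part of these cells in the Igfbp5 difference was not tested.

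Summed endothelial marker signal went the other way, at 130 to 161 in positive and 66.6 to 125 in negative cells without overlap. Its single genes were mixed. Of the 3 tested, Eng was lower in positive cells (-0.51), and Egfl7 (0.63) and Ramp2 (1.73) were higher, all with overlapping groups. The untested Cldn5, Esam and Emcn were lower as well, and the remaining untested ones higher. Pericyte, meningeal and mesenchymal markers overlapped, at 125 to 198 against 134 to 201. None of the 3 and 5 tested members of these lists passed in the limma fit. An unadjusted p under 0.05 was found for 0 and 1 of them, against 10.3% of all genes. The 1 was Foxd1, which passed the filter through positive arrays alone. Of the 13 endothelial genes, 10 were not tested, including Cdh5, Pecam1 and Tek, while Egfl7 exceeded the filter level on all 6 arrays. Kdr, not tested either, did so on 2 positive arrays and no negative one, at averages of 19.7 and 3.75. Its positive replicate 1, at 11.8, lay under the filter level too, so no bound is given. Neuronal marker sums overlapped (12239 to 18290 against 15490 to 19158), and 6 of 8 tested had negative differences. Map2 was lower (-0.73, SE 0.22) and Gap43 higher (0.65, SE 0.21) in positive cells without overlap, while the rest overlapped. None passed in the limma fit. Ventral midbrain markers summed to 3371 to 3461 against 2610 to 2932, and 4 of 11 tested had negative differences. By limma's adjusted p, 2 were higher (En1 and Lmx1a) and 1 was lower in positive cells, against 0.274% and 0.506% of all genes. The lower one was Otx2, at averages of 259 and 540 (limma adjusted p = 0.0398), and Foxa2 averaged 315 and 251. Lmx1a, whose reporter set the negative gate, averaged 125 in positive and 4.04 in negative cells. Lmx1a and Corin (averages 18.3 and 2.12) exceeded the filter level on no negative array. Both passed the filter through positive arrays alone, which largely set their direction.

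**Figure D4:**
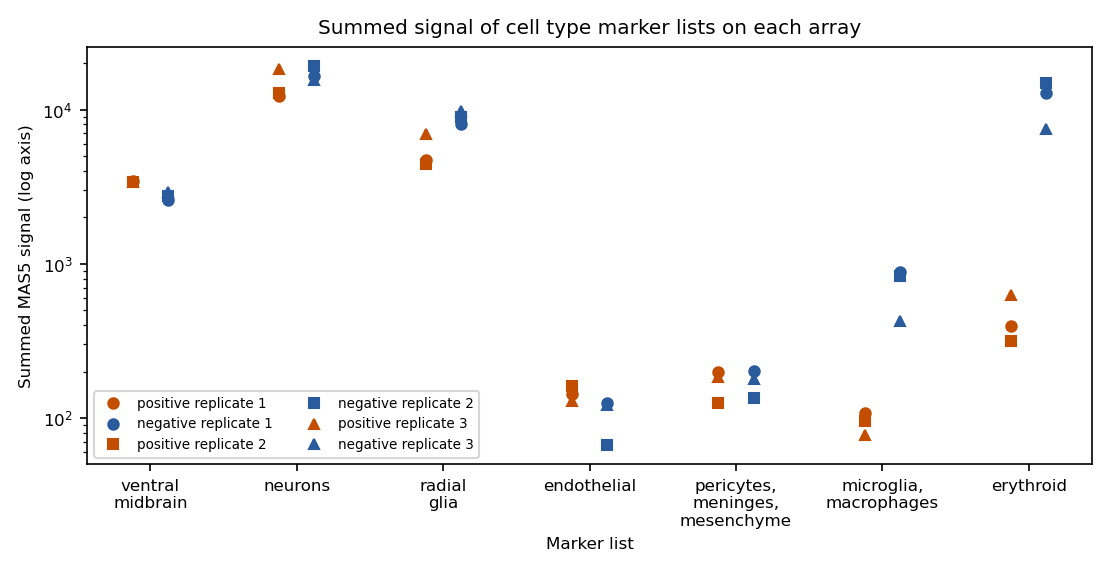
Summed MAS5 signal (log axis) of 7 marker lists on each array, each gene by its probe set with the highest mean, positive arrays in orange and negative arrays in blue. Erythroid sums of 317 to 629 lie far below 7513 to 14933, and microglial sums of 77.4 to 108 below 425 to 887, while neuronal and mesenchymal sums overlap.

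The rest of the pathway was taken from 4 lists with 74 genes, of which 66 had a probe set of their own symbol and 55 were tested. None passed the limma test in either direction after adjustment over all tested probe sets, against 0.78% of all genes taken by their brightest probe set (0.506% lower and 0.274% higher). At an unadjusted p under 0.05 there were 9 of 55 (16.4%), against 10.3% of those genes. Of the 55, 14 had groups that did not overlap, against 15.5% of all such genes. The median difference was 0.11, against 0.03 over those genes. With adjustment over 1 probe set per gene, 12044 in all, 2 passed: Igfbpl1 and Irs4.

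Among 5 tested other genes of the IGF and insulin family, none passed and 1 had an unadjusted p under 0.05 (20.0%, against 10.3% of all genes). Igfbpl1, a secreted relative of the binding proteins, read 166, 145 and 109 on positive and 42.7, 66.1 and 44.8 on negative arrays on 1450960_at. Every positive array lay above every negative one, and the difference of 1.46 (SE 0.31) had a limma adjusted p of 0.0605, or 0.0369 with 1 probe set per gene. Its other probe set also separated the groups, at a smaller difference of 0.47 (SE 0.30). Insr, the insulin receptor, differed by 0.32 (SE 0.23) and Igf2bp1, an RNA-binding protein named for Igf2 mRNA, by -0.25 (SE 0.30), with overlapping groups. Igfbp1 and Ins2 were not tested, although Ins2 exceeded the filter level on 1 negative array.

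Among 36 tested adaptors and kinases downstream of the receptors, none passed and 2 (5.56%) had an unadjusted p under 0.05, against 10.3% of all genes. Irs4, an insulin receptor substrate that links the receptors to phosphoinositide 3-kinase, read 263, 241 and 249 on positive and 99.95, 50.1 and 129 on negative arrays on 1441429_at. The groups were well separated, and the difference of 1.54 (SE 0.32) had a limma adjusted p of 0.0605, or 0.0381 with 1 probe set per gene. Its dimmer probe set, not tested, also had all positive arrays above the negative ones.

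Grb10, an imprinted adaptor that restrains insulin and IGF receptor signalling, went the other way. On 1425458_a_at it read 1371, 1385 and 1683 on positive and 2276, 3278 and 2322 on negative arrays, a difference of -0.81 (SE 0.22, limma adjusted p = 0.203). The groups did not overlap there, but did on its other 2 probe sets (-0.58 and -0.43). Pdpk1, the kinase that activates AKT, differed by 0.50 (SE 0.25) with overlapping groups. The receptor substrates Irs1 (0.46, SE 0.31) and Irs2 (-0.67, SE 0.64) and the kinases Mtor (0.15, SE 0.20) and Akt1 (0.13, SE 0.41) did not pass either.

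None of 6 tested proteases and inhibitors acting on the binding proteins passed, and 2 had an unadjusted p under 0.05 (33.3%, against 10.3% of all genes). Pappa, the metalloproteinase that cleaves IGFBP4 and IGFBP5, read 11.7, 9.90 and 10.7 on positive and 43.8, 16.8 and 30.4 on negative arrays on 1432591_at. No positive array exceeded the filter level, so the observed positive average of Pappa was at least 2.19-fold lower there. That bound is set against the filter level and leaves out the spread between arrays. Pappa passed the filter through negative arrays alone, which largely set its direction. Nothing is read from its part in the counts of this list or of all lists together. The difference was -1.39 (SE 0.59, limma adjusted p = 0.486). Stc2, a secreted inhibitor of PAPPA, read 26.0, 33.3 and 20.4 against 6.58, 8.66 and 14.2 on 1449484_at, a difference of 1.48 (SE 0.62, limma adjusted p = 0.477). Its other 2 probe sets were not tested, at -0.18 and 0.03. Adam28, a metalloproteinase, differed by 1.30 (SE 1.07) with overlapping groups.

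Of 8 tested imprinted growth genes, none passed and 4 had an unadjusted p under 0.05 (against 10.3% of all genes), with 4 differences each way. Dlk1, a transmembrane protein of growing tissues, read 197, 158 and 244 on positive and 82.2, 35.5 and 140 on negative arrays on 1442724_at (1.41, SE 0.41, limma adjusted p = 0.26). The groups did not overlap there or on its other probe set, at 0.60 (SE 0.27). Plagl1, a zinc finger transcription factor, read 1749, 1688 and 2861 against 3823, 3962 and 3121 on 1426208_x_at (-0.83, SE 0.25, limma adjusted p = 0.271), again without overlap. Cdkn1c, a cell cycle inhibitor, differed by 0.60 (SE 0.23, limma adjusted p = 0.439).

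Meg3, a noncoding RNA, had 11 tested probe sets that disagreed. Its brightest, 1439380_x_at, read 1235, 940 and 2373 on positive and 2044, 2818 and 2604 on negative arrays, a difference of -0.81 (SE 0.30, limma adjusted p = 0.426). Positive replicate 3, which stood with the negative arrays in the spike-in controls, lay among the negative values. 1429256_at gave 0.69 (SE 0.24) with all positive arrays above the negative ones, so no direction is given for Meg3.

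**Figure D5:**
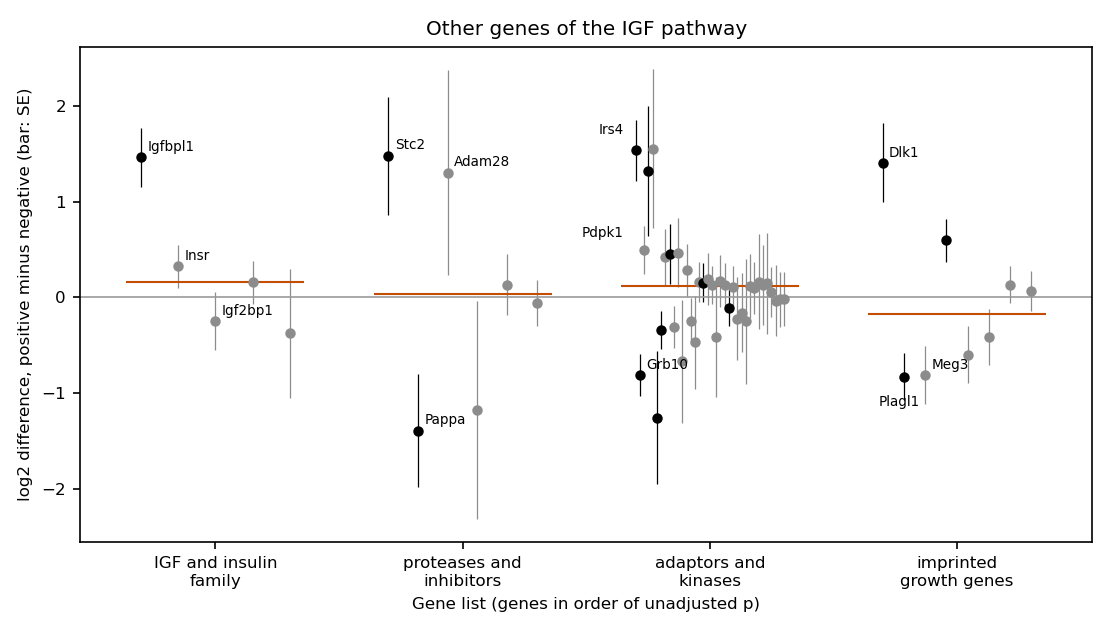
log2 difference, positive minus negative, with SE bars for the 55 tested genes of the 4 pathway lists, in order of unadjusted p within a list. Black points mark groups that do not overlap, orange lines the list medians, and the 3 genes with the smallest p are named: Igfbpl1 (1.46) and Irs4 (1.54) lie high, Grb10 (-0.81) and Plagl1 (-0.83) low.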

How the data were processed

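Probe sets of the deposited table were matched to genes through GEO's platform annotation, and those named for exactly 1 of the 10 family genes were kept. The authors deposited 1 MAS5 signal intensity per probe set and array on a linear scale. The submitters' processing notes name MAS5 and R 2.14.2 for them, and limma with no role stated. Every array has the same trimmed mean of 100, so total RNA content is not measured.

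A floor of 1 was applied before taking log2. Testing was limited to probe sets above the array's 40th percentile on 3 or more arrays. Linear models were fitted in R 4.3.3 using limma 3.58.1 (two-sided moderated tests, variance trend on mean signal) with Benjamini-Hochberg adjustment over all 27738 tested probe sets and a threshold of 0.05. Other genes of the pathway were represented by their tested probe set with the highest mean. Where no array of a group exceeded the 40th percentile, the difference is also given as a bound against that level ("at least"). Members, lists, the named-gene rule (every member, and the 3 genes of each list with the smallest unadjusted p) and alternatives were chosen with earlier results of these data known. Irs1, Irs2, Mtor, Akt1, Cdkn1c, Igfbp1 and Ins2 were named outside that rule. The fit was tested on simulated arrays. Promoter windows and gene neighbours came from RefSeq tables of GRCm38.p6. Figures were drawn with matplotlib 3.10.9.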

Additional observations from a re-analysis of the deposited data

How the results depend on the processing

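Both Igfbp5 differences stayed negative under all 12 alternatives, between -2.13 and -1.46 on 1422313_a_at and between -1.996 and -1.36 on 1452114_s_at. The family was chosen for this direction and the groups did not overlap. Leaving out arrays thus could not change the sign, and nothing is read from its being kept. With spike-in level as a block, or on the 4 arrays with higher spike-ins alone, the Igfbp5 differences were -2.13 and -1.36. Of the other 20 tested members, 8 kept their sign under all of these and 12 did not. The 2 members called became 0 without a filter, without a mean-variance trend and without _s_at, _x_at and _a_at probe sets, which removes both Igfbp5 probe sets. They became 1 with 1 probe set per gene, which keeps 1 per gene by construction, 1 with the spike-in block and 1 on the higher spike-in arrays. Leaving out each array gave 1 to 2, with 1 without negative replicate 3. The 0 pathway genes called became 2 with the 60th percentile filter, 2 with log2 of the signal plus 32 and 2 with 1 probe set per gene. Leaving out each array gave 0 to 6, with 6 when positive replicate 3 was dropped, which leaves all lower spike-ins in 1 group, and 1 when negative replicate 3 was dropped. Apart from the effects of construction, the cause was not tested. With the replicate number as a block 2 members and 1 pathway gene (Irs4) were called. Deviations of same-numbered arrays correlated at 0.16, -0.08 and 0.06, and those of differently numbered arrays at -0.16 to 0.09. With 3 arrays in each group, these values cannot settle whether the numbers pair the samples. Signal near background limits Igf1, Igfbp3, Igfbp6 and Igfbp7.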
